A study of Caenorhabditis elegans with 5 samples.

Results

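The 9 genes described here encode the enzymes by which *C. elegans* breaks down propionate, and they were taken by symbol from the 25393 genes listed in the deposited table. A set of 5 genes, *acdh-1*, *ech-6*, *hach-1*, *hphd-1* and *alh-8*, forms the propionate shunt, and the other 4, *pcca-1*, *pccb-1*, *mce-1* and *mmcm-1*, form the vitamin B12-dependent route. RNA was sequenced from whole wild-type N2 animals grown from arrested L1 larvae on agar seeded with *E. coli* HT115, with 400 µM tamoxifen (3 libraries) or 400 µM citrate as the control (2 libraries), each labelled 48 h and stage L4. Tamoxifen is a drug that binds the estrogen receptor, a nuclear hormone receptor of mammals. Every animal thus shared its genotype and its bacterial diet, and at this dose tamoxifen animals developed more slowly and were collected later than citrate animals, so that the drug and the later collection cannot be told apart in any result below. The samples are described as biological replicates of at least 200 pooled animals.

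Propionate comes from the breakdown of branched-chain amino acids, of methionine and threonine, and of fatty acids with an odd number of carbons, and it is toxic when it builds up. Where vitamin B12 is at hand, propionyl-CoA is carboxylated and rearranged to succinyl-CoA, which enters the tricarboxylic acid cycle. Where vitamin B12 is scarce, as on a diet of *E. coli*, *C. elegans* also uses the shunt, a path like beta-oxidation that takes propionyl-CoA through acrylyl-CoA, hydroxypropionate and malonic semialdehyde to acetyl-CoA. The nuclear hormone receptors NHR-10 and NHR-68 are known to switch on shunt genes when propionate stays high.

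The libraries were made by Cel-seq2, in which each tag marks the 3′ end of an mRNA, and levels are given in CPM, the tags of a gene per 1000000 tags of its library. The library totals ran from 1782371 tags in tamoxifen replicate 3 to 38276144 in tamoxifen replicate 2, a 21.5-fold range. Changes were estimated by limma on log2(CPM + 1) for the 8325 genes that reached 5 CPM in at least 2 libraries. A gene was past the threshold where its p, adjusted by the Benjamini-Hochberg method, was under 0.01 and its change was over 2-fold. All 9 genes were tested. The pseudocount shrinks the fold changes of low genes, and with 3 libraries set against 2 the smallest p of an exact permutation test on a single gene is 0.1. Over all tested genes the log2 fold changes had a median of 0.24, and of -0.01 after median-of-ratios scaling, so changes relative to that median are also given. The adult cuticle collagen gene *col-19*, named after its values were seen, had 851, 734 and 999 CPM in tamoxifen and 671 and 883 CPM in citrate, so that both groups carried a marker of adult skin beside their L4 label.

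All 5 shunt genes had lower estimates in tamoxifen, beside 39.9% of all tested genes. In 4 of them, *ech-6*, *hach-1*, *hphd-1* and *alh-8*, all 3 tamoxifen libraries lay below both citrate libraries, beside 20.8% of all tested genes. In the vitamin B12-dependent route, *pcca-1*, *pccb-1* and *mmcm-1* lay above both citrate libraries in all 3 tamoxifen libraries, beside 39.4% of all tested genes. *mce-1* lay below both in all 3, beside that same 20.8%. None of these differences was past the threshold in limma. Of the 9 genes, 0 passed in either direction, beside 4.66% of all tested genes called higher and 2.76% called lower. At an unadjusted p under 0.05 there were 4 of the 9, all of them shunt genes, beside 44.5% of all tested genes. On the recovered tags, edgeR called 1 of the 9 lower, *ech-6*, beside 5.12% of all tested genes. DESeq2, the tool named in the study's methods, called 2 lower, *ech-6* and *hach-1*, beside 9.37%. Both tools called 0 of the 9 higher, beside 1.78% of all tested genes with edgeR and 5.51% with DESeq2. The study itself reported *ech-6* as reduced with tamoxifen.

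**Figure D1:**
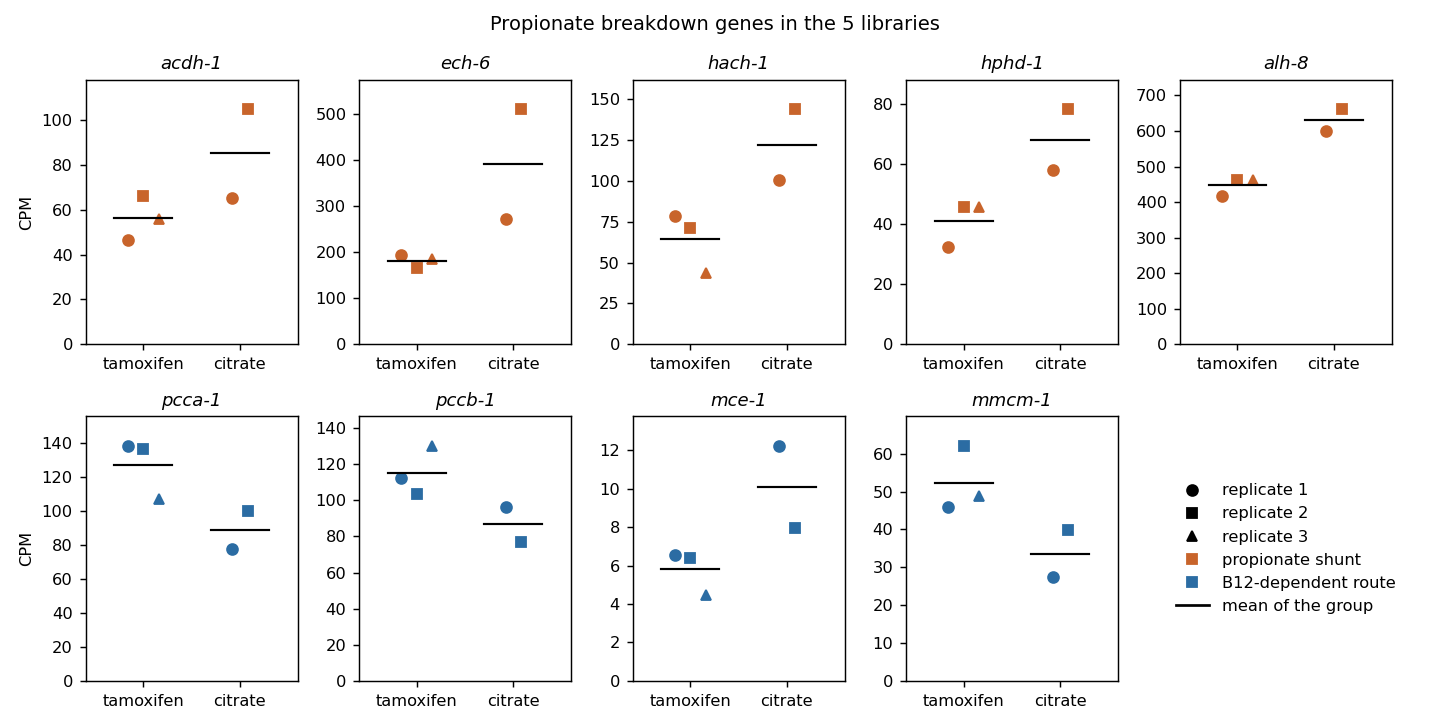
Level of each propionate gene in CPM (vertical axis, from 0) in the 3 tamoxifen and 2 citrate libraries, with 1 point per library, its shape giving the replicate number, and a line at the group mean. The tamoxifen points of *ech-6*, *hach-1*, *hphd-1*, *alh-8* and *mce-1* lie below both citrate points, those of *pcca-1*, *pccb-1* and *mmcm-1* lie above them, and *acdh-1* overlaps.

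The first enzyme of the shunt is ACDH-1, an acyl-CoA dehydrogenase that oxidizes propionyl-CoA to acrylyl-CoA, and its gene is widely used in *C. elegans* as a reporter of low vitamin B12. *acdh-1* (I, 6497436 to 6499560, Ensembl release 115) had 46.7, 66.4 and 56.1 CPM in tamoxifen, against 65.4 and 105 CPM in citrate. It was the only propionate gene whose groups overlapped, since tamoxifen replicate 2 was slightly above citrate replicate 1. The means were 56.4 ± 9.84 CPM in tamoxifen (SD, n = 3) and 85.2 ± 28.0 CPM in citrate (SD, n = 2). The log2 fold change was -0.56 (standard error (SE) 0.31, 95% interval -1.22 to 0.10, adjusted p = 0.171 in limma), or -0.80 relative to the median of all genes.

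ECH-6 is the enoyl-CoA hydratase that adds water to acrylyl-CoA in the next step. On chromosome III, *ech-6* (9751552 to 9752883) had 193, 165 and 185 CPM in tamoxifen, against 271 and 510 CPM in citrate. The tamoxifen libraries lay close together, and the citrate libraries were further from each other than the higher tamoxifen value was from the lower citrate value. The means were 181 ± 14.4 CPM in tamoxifen (SD, n = 3) and 390 ± 169 CPM in citrate (SD, n = 2). With a log2 fold change of -1.04 (SE 0.29, 95% interval -1.66 to -0.42, adjusted p = 0.0188 in limma), *ech-6* was past the fold limit of 2 but its p was not past the limit. It was -0.59 against citrate replicate 1 alone (adjusted p = 0.143) and -1.49 against citrate replicate 2 alone (adjusted p = 0.0313), where limma takes the lone citrate library to vary as the tamoxifen libraries do. Relative to the median of all genes the difference was -1.28, and after median-of-ratios scaling *ech-6* passed the threshold (log2 fold change -1.31, adjusted p = 0.00681 in limma), as it did with edgeR (-1.33, adjusted p = 0.0063) and DESeq2 (-1.36, adjusted p = 0.000156).

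HACH-1 is the hydrolase that frees hydroxypropionate from CoA. *hach-1* (III, 5555450 to 5557318) had 78.6, 71.0 and 43.8 CPM in tamoxifen, against 100.5 and 144 CPM in citrate. The groups did not overlap, and the lowest value was in tamoxifen replicate 3, the library with the fewest tags, where 78 tags stood behind it. The log2 fold change was -0.93 (SE 0.32, 95% interval -1.62 to -0.25, adjusted p = 0.0419 in limma), or -1.17 relative to the median of all genes. Without tamoxifen replicate 3 it was -0.68 (adjusted p = 0.147), and with DESeq2 it was -1.16 and past the threshold (adjusted p = 0.00339).

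HPHD-1 is a transhydrogenase that turns hydroxypropionate into malonic semialdehyde. *hphd-1* (II, 12994354 to 12996571) had 32.2, 45.7 and 45.4 CPM in tamoxifen, against 57.9 and 78.1 CPM in citrate. Its groups did not overlap. The log2 fold change was -0.72 (SE 0.30, 95% interval -1.37 to -0.06, adjusted p = 0.085 in limma), or -0.96 relative to the median of all genes.

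ALH-8, an aldehyde dehydrogenase, makes acetyl-CoA from malonic semialdehyde in the last step. *alh-8* (II, 11729055 to 11731198) had 417, 462 and 463 CPM in tamoxifen, against 599 and 661 CPM in citrate. Of the shunt genes it differed least between libraries of 1 group, by 0.14 on the log2 scale between the citrate libraries and by 0.15 between the lowest and the highest tamoxifen library. Its log2 fold change of -0.49 (SE 0.22, 95% interval -0.97 to -0.02, adjusted p = 0.101 in limma) was the smallest in size of the 5, and was -0.73 relative to the median of all genes. *alh-8* overlaps *F13D12.8* on the other strand, and whether the authors' counting used strand is not given in the sources used here. *F13D12.8* was below the level tested, with 1.99, 1.96 and 1.12 CPM in tamoxifen and 5.88 and 3.56 CPM in citrate, far below *alh-8* in every library.

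Over the shunt as a whole, the median log2 fold change was -0.72, in a range from -1.04 to -0.49, beside 0.24 for all tested genes, of which 39.9% were below 0. Of the 5 genes, 4 did not overlap and were lower in tamoxifen, beside 20.8% of all tested genes. At an adjusted p under 0.05 there were 2 lower, *ech-6* and *hach-1*, beside 9.67% of all tested genes, and 0 higher, beside 20.4%. With median-of-ratios scaling the median of the shunt was -0.98 and 4 of the 5 were lower at that adjusted p, beside 15.6% of all tested genes. The summed level of the 5 genes was 767, 809.8 and 793 CPM in tamoxifen, against 1094 and 1498 CPM in citrate. *alh-8* alone made up 54.4, 57.1 and 58.4% of that sum in tamoxifen, and 54.8 and 44.1% in citrate. The tamoxifen sums averaged 790 ± 21.5 CPM (SD, n = 3) and the citrate sums 1296 ± 286 CPM (SD, n = 2), so that most of the spread lay between the citrate libraries.

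**Figure D2:**
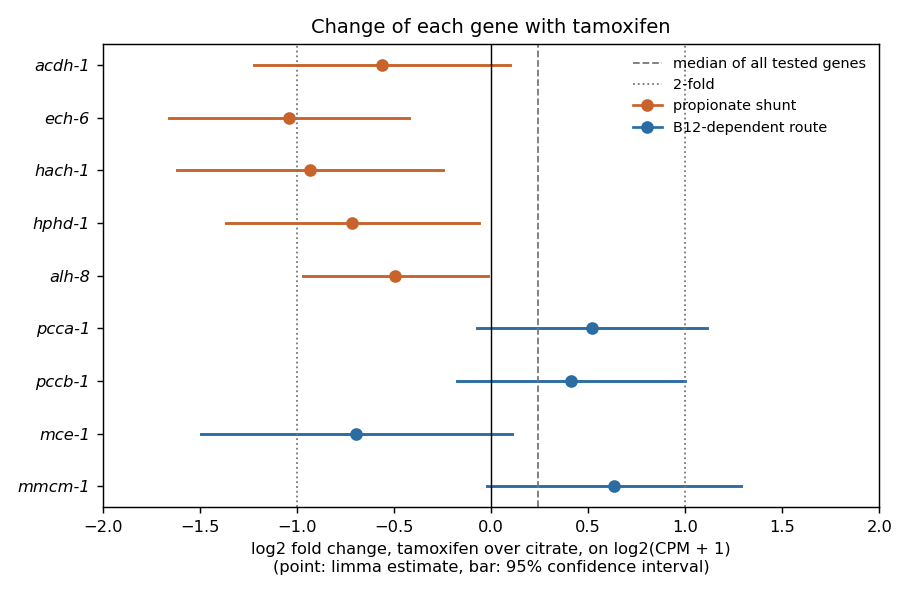
Log2 fold change of each propionate gene, tamoxifen over citrate on log2(CPM + 1) (horizontal axis), with the limma estimate as a point and its 95% confidence interval as a bar. Dotted lines mark 2-fold in either direction and the dashed line marks the median of all tested genes, 0.24. The intervals of *ech-6*, *hach-1*, *hphd-1* and *alh-8* lie below 0, and those of the other 5 genes include 0.

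The vitamin B12-dependent route begins with propionyl-CoA carboxylase, which is built from an alpha subunit, PCCA-1, and a beta subunit, PCCB-1. On chromosome X, *pcca-1* (7657542 to 7660986) had 138, 136 and 107 CPM in tamoxifen, against 77.6 and 99.7 CPM in citrate. On the same chromosome, *pccb-1* (3089549 to 3092437) had 112, 103.7 and 130 CPM in tamoxifen, against 96.5 and 76.7 CPM in citrate. Both genes were higher in every tamoxifen library, but tamoxifen replicate 3 was the lowest of its group for *pcca-1* and the highest for *pccb-1*. The log2 fold change was 0.52 for *pcca-1* (SE 0.28, 95% interval -0.07 to 1.11, adjusted p = 0.16 in limma). For *pccb-1* it was 0.41 (SE 0.27, 95% interval -0.17 to 0.999, adjusted p = 0.256 in limma). Relative to the median of all genes these values were 0.28 and 0.17. *pccb-1* overlaps the hedgehog-related gene *wrt-2* on the other strand, which had at most 3.37 CPM in tamoxifen and 0.477 CPM in citrate.

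MCE-1, the methylmalonyl-CoA epimerase, acts between the carboxylase and the mutase. *mce-1* (I, 7582106 to 7583333) had 6.55, 6.37 and 4.49 CPM in tamoxifen, against 12.2 and 7.98 CPM in citrate. These values rest on few tags, 23, 244 and 8 in the tamoxifen libraries and 231 and 74 in the citrate libraries. The 95% Poisson interval, which covers counting error only, was 1.94 to 8.84 CPM in tamoxifen replicate 3 and 6.26 to 10.01 CPM in citrate replicate 2, and these intervals overlap. *mce-1* was lower in tamoxifen, unlike the other genes of its route, with a log2 fold change of -0.69 (SE 0.37, 95% interval -1.49 to 0.11, adjusted p = 0.163 in limma), or -0.94 relative to the median of all genes.

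MMCM-1, the methylmalonyl-CoA mutase, uses vitamin B12 as its cofactor and makes succinyl-CoA. *mmcm-1* (III, 3903185 to 3907687) had 45.8, 62.1 and 48.8 CPM in tamoxifen, against 27.3 and 39.9 CPM in citrate. The groups did not overlap. Its log2 fold change of 0.63 (SE 0.31, 95% interval -0.02 to 1.29, adjusted p = 0.123 in limma) was the largest above 0 among the 9 genes, and it was 0.39 relative to the median of all genes.

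Over the 4 genes of this route, 3 did not overlap and were higher in tamoxifen, beside 39.4% of all tested genes, and 1 was lower. The median log2 fold change was 0.47, and it was 0.20 after median-of-ratios scaling, with the same 3 genes above 0. No gene of the route had an unadjusted p under 0.05, beside 44.5% of all tested genes. The summed level was 303, 308 and 291 CPM in tamoxifen, against 214 and 224 CPM in citrate, with means of 301 ± 9.09 CPM in tamoxifen (SD, n = 3) and 219 ± 7.54 CPM in citrate (SD, n = 2). The ratio of the summed shunt level to that of the vitamin B12-dependent route does not depend on the scaling of a library. It was 2.53, 2.63 and 2.73 in tamoxifen and 5.12 and 6.68 in citrate, with *alh-8* weighing most in the shunt sum. The ratio was chosen after the values were seen and is given without a test.

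The citrate libraries differed from each other in part of these genes. All 5 shunt genes had higher levels in citrate replicate 2 than replicate 1, by a median of 0.52 on the log2 scale and by up to 0.91 for *ech-6*, beside 59.7% of all tested genes higher and a median of 0.13. The smallest such difference was that of *alh-8*, 0.14. In the vitamin B12-dependent route *mmcm-1* and *pcca-1* were higher in citrate replicate 2, by 0.53 and 0.36, while *pccb-1* and *mce-1* were lower, by differences of -0.33 and -0.56. The shunt was therefore nearest between the groups where tamoxifen was set against citrate replicate 1, with log2 differences of -0.22 for *acdh-1*, -0.59 for *ech-6*, -0.68 for *hach-1*, -0.50 for *hphd-1* and -0.42 for *alh-8*.

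**Figure D3:**
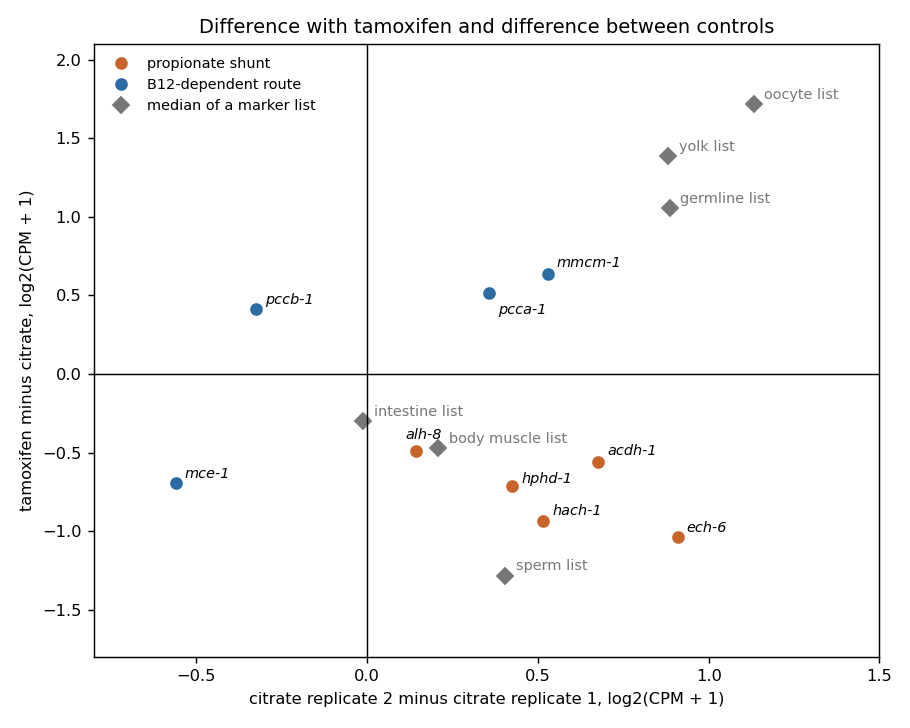
Each propionate gene and the median of each of 6 marker lists by its difference between the citrate libraries (horizontal axis, replicate 2 minus replicate 1) and its difference between tamoxifen and citrate (vertical axis), both on log2(CPM + 1). Both axes use the same 2 citrate libraries. The shunt genes lie to the right of 0 and below it, and the oocyte, yolk and germline lists lie to the right of 0 and above it. The sperm and body muscle lists lie, like the shunt genes, to the right of 0 and below it.

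Markers of other tissues were measured in the same libraries. In bulk RNA, fewer cells of a type and less RNA per cell cannot be told apart. The shunt genes are known to be expressed in intestine and hypodermis. Of 8 intestine markers, 7 were matched and tested, with a median log2 fold change of -0.30 and summed levels of 3092 to 3910 CPM in tamoxifen and 3727 to 5769 CPM in citrate. Of these 7, 1 was lower past the threshold, beside 2.76% of all tested genes, and 0 were higher, beside 4.66%. The 1 lower, the gut actin gene *act-5*, fell to 829, 863 and 477 CPM in tamoxifen, against 2417 and 1917 CPM in citrate (log2 fold change -1.62, SE 0.26, adjusted p = 0.0029 in limma). The intestine marker *cpr-6*, named after its value was seen, went the other way, with 164, 167 and 270 CPM in tamoxifen and 83.6 and 90.8 CPM in citrate (log2 fold change 1.15, adjusted p = 0.0133 in limma). Of the 7 markers 3 were above 0, or 2 after median-of-ratios scaling. Of 7 hypodermis markers 4 were tested, with a median of 0.29 and 3 above 0, or 0.03 and 2 above 0 after median-of-ratios scaling. Without overlap 1 of the 4 was lower, beside 20.8% of all tested genes, and 0 were higher, beside 39.4%. The hypodermis markers had summed levels of 849 to 1174 CPM in tamoxifen and 824 to 991 CPM in citrate. Of 5 body muscle markers 3 were tested, with a median of -0.47, summed levels of 709 to 1055 CPM in tamoxifen and 1248 to 1332 CPM in citrate. Without overlap 2 of the 3 were lower, beside 20.8% of all tested genes. After median-of-ratios scaling their median was -0.74, and 2 were lower at an adjusted p under 0.05 in limma, beside 15.6% of all tested genes. The 5 neuron markers summed to 403 to 472 CPM in tamoxifen and 382 to 398 CPM in citrate, and 4 were tested. Of the hypodermis, muscle and neuron markers 0 passed in limma, edgeR or DESeq2, and at an unadjusted p under 0.05 in limma there was 1, in muscle, beside 44.5% of all tested genes.

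Genes of the germ line and of yolk differed too, with median log2 fold changes of 1.72 for oocyte, 1.39 for yolk, 1.05 for germline and -1.29 for sperm markers. Of 7 oocyte markers 6 rose past the threshold, beside 4.66% of all tested genes. Among them was the yolk receptor gene *rme-2* (log2 fold change 1.86, adjusted p = 0.00353 in limma). The oocyte markers had summed levels of 7133 to 7864 CPM in tamoxifen and 2666 to 4395 CPM in citrate. All 6 germline markers were higher in tamoxifen without overlap, beside 39.4% of all tested genes, and 2 of them were past the threshold, beside 4.66%. Their sums were 1743 to 1911 CPM in tamoxifen and 657 to 1222 CPM in citrate. The 6 yolk protein genes, which are made in the intestine, were also all higher, 4 of them past the threshold, beside that same 4.66%. Their sums were 3315 to 4866 CPM in tamoxifen and 1343 to 2128 CPM in citrate. These calls moved with the scaling, while every oocyte, yolk and germline marker stayed above 0. After median-of-ratios scaling 5 oocyte, 2 yolk and 0 germline markers were higher past the threshold, beside 151 of the 8325 tested genes. In the same order edgeR called 4, 3 and 0 higher and DESeq2 called 6, 4 and 2, beside 1.78% and 5.51% of all tested genes. All 5 tested sperm markers were lower without overlap, beside 20.8% of all tested genes. The sums over the 7 listed were 112 to 202 CPM in tamoxifen and 285 to 381 CPM in citrate. Of these 5 sperm markers 0 passed in limma and 4 had an unadjusted p under 0.05, beside 44.5% of all tested genes. edgeR called 1 of them lower and DESeq2 called 3 lower, beside 5.12% and 9.37% of all tested genes. No listed marker was at 0 in every library. All oocyte, germline and yolk genes listed had higher levels in citrate replicate 2 than replicate 1 too, by medians of 1.13, 0.89 and 0.88 on the log2 scale. Of the 5 tested sperm markers 4 were also higher in citrate replicate 2, with a median difference of 0.40 over the 5. The difference between the citrate libraries and that between tamoxifen and citrate share the citrate libraries. The part of tissue make-up and stage in the values of the propionate genes was not tested.

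NHR-10 and NHR-68 are nuclear receptors known to regulate the shunt. *nhr-10* had 7.12, 7.97 and 5.61 CPM in tamoxifen and 8.42 and 7.65 CPM in citrate, and its groups overlapped (log2 fold change -0.20, SE 0.36, adjusted p = 0.682 in limma). *nhr-68* had 14.5, 22.6 and 17.4 CPM in tamoxifen and 28.4 and 30.2 CPM in citrate. It was lower in every tamoxifen library but did not pass (log2 fold change -0.68, SE 0.32, adjusted p = 0.11 in limma). After median-of-ratios scaling *nhr-68* was at -0.94 (adjusted p = 0.0405 in limma). It was at -0.89 with edgeR (adjusted p = 0.0549) and -0.92 with DESeq2 (adjusted p = 0.0376). Of 6 regulators listed, which also include *nhr-114*, *mdt-15*, *sbp-1* and *nhr-49*, 5 were tested and 0 passed in limma, edgeR or DESeq2, with 2 at an unadjusted p under 0.05 in limma, beside 44.5% of all tested genes. *nhr-49*, a nuclear receptor of fat metabolism named after its value was seen, had a log2 fold change of 1.02 (adjusted p = 0.0323 in limma), and 0.77 (adjusted p = 0.0858) after median-of-ratios scaling.

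*acdh-2* encodes a close relative of ACDH-1 and was the only gene of the related enzyme lists past the threshold in limma. *acdh-2* (II, 5544778 to 5547492) had 1.14, 1.70 and 2.81 CPM in tamoxifen, against 22.2 and 28.6 CPM in citrate. It fell to a mean of 1.88 ± 0.848 CPM in tamoxifen (SD, n = 3), against 25.4 ± 4.47 CPM in citrate (SD, n = 2), with a log2 fold change of -3.23 (SE 0.40, adjusted p = 0.00106 in limma). The citrate libraries differed by 0.35 on the log2 scale. Its values in tamoxifen replicates 1 and 3 rest on few tags, as 1 tag was worth 0.285 and 0.561 CPM there. *acdh-2* passed the filter only through the citrate libraries, so it was not tested where either of them was left out. With no filter, over 20671 genes, the adjusted p of *acdh-2* was 0.0825 in limma. As paralogs, *acdh-1* and *acdh-2* could share tags, and *acdh-2* overlaps the insulin-like gene *ins-13* on the same strand. *ins-13* had 0 tags in tamoxifen replicates 1 and 3, which allows up to 0.854 and 1.68 CPM, and 0.183 CPM in tamoxifen replicate 2, against 2.28 and 1.94 CPM in citrate.

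The genes around the pathway were counted in the same fit. Of 7 genes that handle vitamin B12 or use it elsewhere, all were tested and 0 passed in limma, edgeR or DESeq2, with 3 at an unadjusted p under 0.05 in limma, beside 44.5% of all tested genes. Their median log2 fold change was 0.55 and all 7 were above 0, where 39.9% of all tested genes were below 0. After median-of-ratios scaling 5 of the 7 were above 0. *metr-1*, the vitamin B12-dependent methionine synthase, named after its value was seen, had 206, 201 and 204 CPM in tamoxifen and 63.3 and 127 CPM in citrate. Its log2 fold change was 1.17 (SE 0.30, adjusted p = 0.0147 in limma), and 0.91 (adjusted p = 0.0335) after median-of-ratios scaling. For 6 of these 7 genes citrate replicate 2 was also above citrate replicate 1, and the median difference over the 7 was 0.83.

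Of 16 listed genes of branched-chain amino acid breakdown, a source of propionyl-CoA, 13 were matched and tested, with a median of -0.01 and 7 below 0. In limma 0 of the 13 were past the threshold and 3 had an unadjusted p under 0.05, beside 44.5% of all tested genes. edgeR and DESeq2 each called 1 of the 13 lower, *dld-1*, beside 5.12% and 9.37% of all tested genes. *dld-1*, the dihydrolipoamide dehydrogenase that several mitochondrial complexes share, named after its value was seen, had 158, 135 and 113.9 CPM in tamoxifen and 290 and 239 CPM in citrate (log2 fold change -0.96, SE 0.27, adjusted p = 0.0181 in limma). After median-of-ratios scaling *dld-1* passed the threshold (-1.23, adjusted p = 0.00758). The 4 genes of succinyl-CoA ligase, which uses the product of the vitamin B12-dependent route, were split. With all 4 named after their values were seen, *suca-1* was at -1.27 (adjusted p = 0.0219) and *sucl-1* at -0.69 (adjusted p = 0.0833), while *sucl-2* was at 0.53 (adjusted p = 0.112) and *sucg-1* at 0.67 (adjusted p = 0.094), and 0 of the 4 passed in limma, with 3 at an unadjusted p under 0.05, beside that same 44.5%. For this ligase edgeR called 0 and DESeq2 called 1, which was lower, beside 9.37% of all tested genes called lower with DESeq2. Apart from *acdh-2*, none of the 7 tested genes for other acyl-CoA dehydrogenases or the 5 tested genes for other enoyl-CoA hydratases passed in limma, edgeR or DESeq2. The enoyl-CoA hydratases lay between -0.26 and 0.29, none with an unadjusted p under 0.05.

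**Figure D4:**
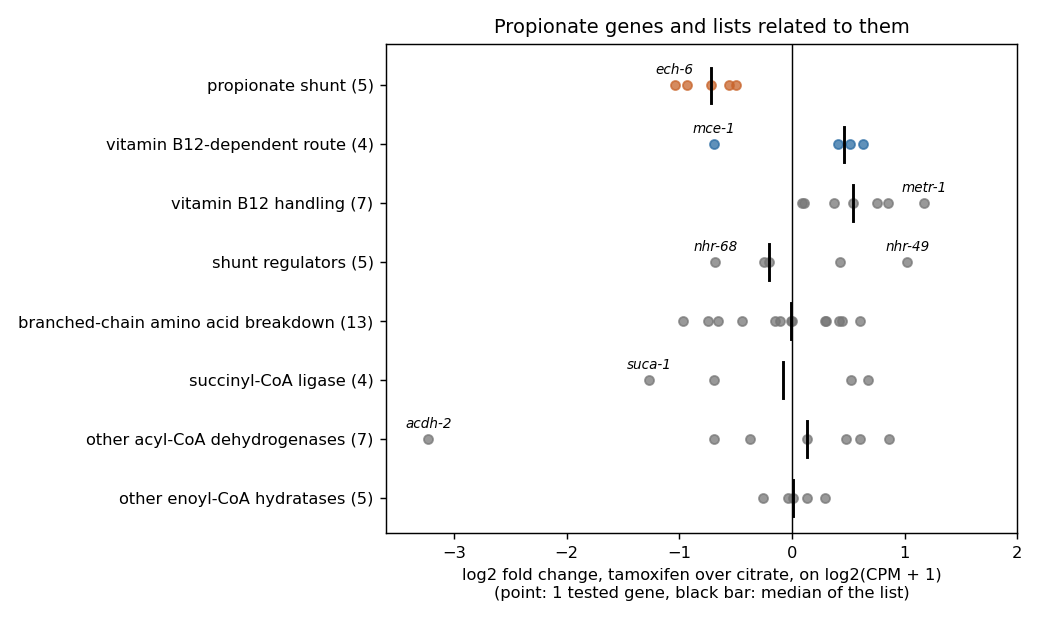
Log2 fold change, tamoxifen over citrate on log2(CPM + 1) (horizontal axis), of each tested gene of the shunt, the vitamin B12-dependent route and 6 related lists, with 1 point per gene, the number tested in brackets and a bar at the list's median. The 5 shunt genes all lie below 0, and *acdh-2*, at -3.23, is the only gene shown that was past the threshold in limma. *acdh-2* passed the filter only through the citrate libraries.

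The genes whose profile over the 5 libraries was nearest to that of *acdh-1* and *ech-6* were found by the root mean square difference between centred log2(CPM + 1) values, a description over 5 libraries of unequal depth. For *acdh-1* the nearest of 8324 genes were *prmn-1* (0.0894), *ZK1098.6* (0.107) and *famk-1* (0.121), none past the threshold. Among the propionate genes *hphd-1* was the nearest to *acdh-1* and ranked 6, followed by *alh-8* at rank 58, *ech-6* at 564 and *hach-1* at 1124. The 4 genes of the vitamin B12-dependent route ranked from 1958 for *mce-1* to 4097 for *pccb-1*. For *ech-6* the nearest genes were *Y37E11B.10* (0.142), *asns-2* (0.146) and *Y9C2UA.1* (0.147), again none past the threshold. All 3 were low, with at most 4.84 CPM in tamoxifen and 13.8 CPM in citrate. They passed the filter only through the citrate libraries, so the filter itself favoured genes lower in tamoxifen at this level. The other shunt genes ranked 148 for *hphd-1*, 151 for *hach-1*, 178 for *acdh-1* and 348 for *alh-8* by nearness to *ech-6*.

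The direction of every propionate gene was kept in all 143 estimates from up to 16 alternative fits per gene. Not all of these could have reversed. Changing the filter or leaving out the trend does not change an estimate, and the replicate block repeats the estimate without tamoxifen replicate 3. Where the groups do not overlap, leaving out a library cannot change the direction. The lowest and highest estimates were -0.90 and -0.22 for *acdh-1*, -1.49 and -0.59 for *ech-6*, -1.203 and -0.68 for *hach-1*, -0.99 and -0.50 for *hphd-1* and -0.76 and -0.42 for *alh-8*. In the vitamin B12-dependent route they were 0.25 and 0.70 for *pcca-1*, 0.13 and 0.58 for *pccb-1*, -1.04 and -0.41 for *mce-1* and 0.37 and 0.90 for *mmcm-1*. Of these 143 estimates 6 passed the threshold, 5 for *ech-6* and 1 for *hach-1*.

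**Figure D5:**
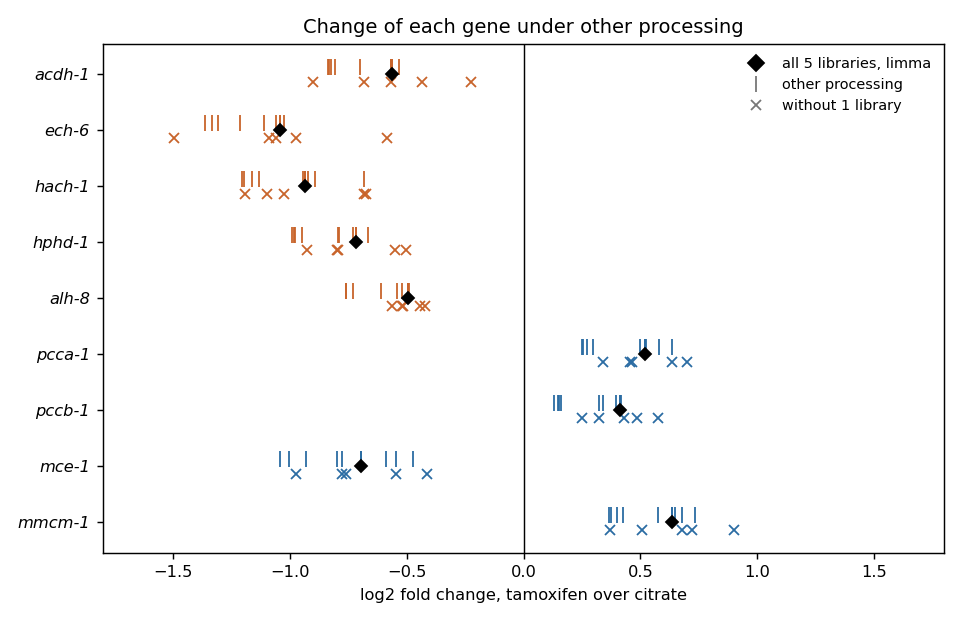
Log2 fold change, tamoxifen over citrate (horizontal axis), of each propionate gene with all 5 libraries in limma (diamond), under other processing (vertical marks) and without 1 library (crosses). No mark crosses 0, and the widest range is that of *ech-6*, from -1.49 to -0.59.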

How the data were processed

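The 5 libraries (3 tamoxifen, 2 citrate) were grouped by their labels, and all came from 1 deposited table of 25393 genes. Per the submitters' processing notes, reads were handled with Trimmomatic 0.32 and STAR, and the study's methods name a DolphinNext pipeline. The genome build, the use of strand and the collapsing of molecular identifiers are not given in the sources used here. The authors deposited values named TPM that are CPM, made by scaling the tags of each library to a sum of 1000000 without gene length. With a tolerance of 0.01 tag, 100% of the values were whole multiples of the worth of 1 tag, and tags were recovered from them. The plan assumed values scaled to a fixed total, so limma stayed the test. Of the listed genes 25064 matched a symbol.

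The fit used limma 3.58.1 in R 4.3.3 with a mean-variance trend, a pseudocount of 1 and no covariates. Alternatives were pseudocounts of 0.1 and 5, no filter or 20 CPM, median-of-ratios scaling over the tested genes, quantile normalization, a fit without the trend, a replicate block, leaving out each library, other thresholds, and edgeR 4.0.16 (quasi-likelihood, TMM) and DESeq2 1.42.0 (Wald test) on the recovered tags. Thinning to 1782371 tags was added after seeing the data. The fits were tested on simulated data.

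The members and lists were chosen with earlier results of these data known. The text names the 9 members, *nhr-10*, *nhr-68*, *acdh-2*, other listed genes past the threshold, and the 3 nearest profiles to *acdh-1* and *ech-6*. Other genes are said to be named after their values were seen. The marker lists cover intestine, hypodermis, body muscle, neurons, germline, sperm, oocyte and yolk. The symbols *opt-2*, *hibadh-1*, *acat-1* and *oxct-1* were not matched. No promoter or protein sequence was used here.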

Additional observations from a re-analysis of the deposited data

How the results depend on the processing

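Thinning was chosen after seeing the data, and where a value moved the cause was not tested. Counts are genes past the threshold, higher and lower in tamoxifen, against 388 and 230. They were 0 and 0 in limma with no filter (4742 of 20671 genes at an unadjusted p under 0.05), 151 and 405 after median-of-ratios scaling, 221 and 369 after quantile normalization, 31 and 46 without a trend, 220 and 137 after thinning, and 1333 and 678 at an adjusted p under 0.05. They were 148 and 426 with edgeR and 459 and 780 with DESeq2. Without 1 library they ranged from 4 to 561 and from 1 to 154. Without citrate replicate 1 they were 4 and 1, without tamoxifen replicate 1 they were 21 and 60, and without tamoxifen replicate 3 they were 44 and 97. Lower calls were 153 without citrate replicate 2. With no fold limit, with a filter of 20 CPM and with either other pseudocount both counts were within 1.5 times.

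Among the 9 propionate genes 0 were lower past the threshold, and 1, *ech-6*, was after median-of-ratios scaling, after quantile normalization (log2 fold change -1.21, adjusted p = 0.00944), with edgeR and at an adjusted p under 0.05, while 2 were with DESeq2. The count was 0 whichever library was left out, and 0 were higher in every fit. *acdh-2* lost its call with no filter (-3.23, adjusted p = 0.0825), and the reason was not tested. That fit changed both the number of genes tested and the mean-variance trend estimated from them.

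With a replicate block the counts were 1044 and 599, and 1 propionate gene, *ech-6*, was lower (-1.06, adjusted p = 0.00194). No citrate library carries number 3, so the block takes no part of its estimate from tamoxifen replicate 3. The libraries share only a number. Across genes, the deviations of libraries with 1 number from the means of their groups had correlations of 0.12 for replicate 1 and 0.32 for replicate 2. Among the 9 propionate genes, the 21.5-fold range of depth limits *mce-1* most, with 8 tags in the smallest library.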
